A study of Mus musculus with 8 samples.

Results

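The genes examined here encode mitochondrial ribosomal proteins and were taken as every gene of the count tables whose symbol begins with Mrpl or Mrps followed by a digit. There were 77 of them among 24421 genes, 48 named for the large subunit (Mrpl) and 29 for the small subunit (Mrps), on 17 chromosomes. R1 mouse embryonic stem cells (ESCs) were compared in 2 states. Undiff is the sample before differentiation, and Day4 is embryoid bodies, floating aggregates of ESCs, grown for 4 days without leukaemia inhibitory factor (LIF) and then treated for 4 days with retinoic acid (RA), which drives stem cells out of pluripotency. For both states, the polyadenylated RNA went onto nanopore flow cells of Oxford Nanopore Technologies (ONT) by the Direct RNA kit, in which the native strand passes through the pore, and by the cDNA kit, in which a PCR-amplified copy does. Each of the 4 groups had 2 replicates, which the methods describe as cultures grown and treated separately, and all came from the single R1 line. The labels name the tissue of every sample as embryoid bodies, whereas the methods describe Undiff as ESCs maintained with LIF, so the culture form of Undiff is not certain.

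The mitochondrial ribosome, or mitoribosome, translates the few proteins encoded by mitochondrial DNA, all of them subunits of the oxidative phosphorylation complexes. Its proteins are encoded in the nucleus, made in the cytosol and imported. Part of them descend from bacterial ribosomal proteins, and the others were added in the mitochondrial lineage. Of the 77 genes, 48 encode a protein with a bacterial homologue and 29 encode one without. Gene names do not always give the place of the protein, since the products of Mrps30 and Mrps18a sit in the large subunit, and the product of Mrps36 was later assigned to the 2-oxoglutarate dehydrogenase complex.

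Reads on genes ranged from 283461 to 907489 in the 4 Direct RNA libraries and from 948657 to 2088592 in the 4 cDNA libraries. The floor of 3 reads corresponded to between 1.44 and 10.6 CPM, where CPM is reads per 1e6 reads on genes. The median Mrp gene had between 24 and 122 reads in a Direct RNA library and between 217 and 411 in a cDNA library, and none was at 0 reads in any library. The 6 pluripotency markers (Pou5f1, Nanog, Sox2, Zfp42, Esrrb and Tdgf1) summed to between 2675 and 5749 CPM in the Undiff libraries and to between 7.59 and 146 CPM in the Day4 libraries, where Esrrb was at 0 reads in cDNA Day4 replicate 1. The 6 mesenchyme markers (Col1a1, Col1a2, Col3a1, Thy1, Pdgfra and Postn) were at most at 14.3 CPM in sum in Undiff and between 227 and 2960 CPM in Day4. Col3a1 was the largest part of each Day4 sum. Thy1 went the other way, from 8.61 and 6.61 to 0 and 4.07 CPM in Direct RNA and from 7.38 and 3.83 to 0 and 0.96 CPM in cDNA. The 6 endoderm markers (Gata4, Gata6, Sox17, Foxa2, Afp and Ttr) were at most at 8.61 CPM in sum in Undiff and between 181 and 931 CPM in Day4. Neural markers summed to 178 and 161 CPM in Direct RNA Undiff, 152 and 111 CPM in Direct RNA Day4, 88.5 and 192 CPM in cDNA Undiff and 620 and 636 CPM in cDNA Day4, and the Day4 sum in cDNA was mostly Ncam1. Tubb3, the largest part of the Undiff sums, was lower at Day4. It went from 164 and 127 to 10.6 and 14.9 CPM in Direct RNA and from 69.6 and 162 to 28.8 and 22.1 CPM in cDNA. Sox1 was at 0 reads in every cDNA library.

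Promoter sequences are shown first for 5 genes that fell at Day4, so that the start regions of genes that moved in the same direction can be read side by side. Each is the RefSeq promoter of 300 bases on GRCm38.p6, from 250 bases before the transcription start to 50 after it, written 5′ to 3′ on the strand of the gene. The windows are chr17:35916391-35916690 (minus strand), chr11:5707652-5707951 (minus), chr11:97315466-97315765 (plus), chr16:18876588-18876887 (minus) and chr13:73330759-73331058 (plus). The RefSeq start is not always that of the gene positions given below. The Mrps18b window lies wholly before the gene as given there, and the Mrps24 window lies inside it. Where a match stands relative to the start thus depends on the annotation. Capitals mark exact matches, on either strand, to the motifs searched.
Mrps18b: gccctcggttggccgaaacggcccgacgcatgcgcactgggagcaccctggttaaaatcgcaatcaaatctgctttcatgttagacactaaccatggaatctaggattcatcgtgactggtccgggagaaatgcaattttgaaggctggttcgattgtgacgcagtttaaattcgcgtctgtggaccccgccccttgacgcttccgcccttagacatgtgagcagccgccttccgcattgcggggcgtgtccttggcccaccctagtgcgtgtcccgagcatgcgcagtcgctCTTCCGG
Mrps24: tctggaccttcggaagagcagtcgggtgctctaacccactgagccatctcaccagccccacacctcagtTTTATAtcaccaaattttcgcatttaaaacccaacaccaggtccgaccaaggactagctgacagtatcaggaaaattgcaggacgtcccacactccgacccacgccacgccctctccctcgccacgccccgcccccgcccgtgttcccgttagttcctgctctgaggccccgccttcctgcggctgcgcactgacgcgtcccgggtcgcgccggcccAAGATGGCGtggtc
Mrpl45: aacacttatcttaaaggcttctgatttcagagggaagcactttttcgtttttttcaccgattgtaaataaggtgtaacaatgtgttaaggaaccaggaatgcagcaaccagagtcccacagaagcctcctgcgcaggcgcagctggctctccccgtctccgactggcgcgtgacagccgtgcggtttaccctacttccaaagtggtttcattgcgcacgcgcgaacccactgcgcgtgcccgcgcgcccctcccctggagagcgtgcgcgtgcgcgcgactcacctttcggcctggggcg
Mrpl40: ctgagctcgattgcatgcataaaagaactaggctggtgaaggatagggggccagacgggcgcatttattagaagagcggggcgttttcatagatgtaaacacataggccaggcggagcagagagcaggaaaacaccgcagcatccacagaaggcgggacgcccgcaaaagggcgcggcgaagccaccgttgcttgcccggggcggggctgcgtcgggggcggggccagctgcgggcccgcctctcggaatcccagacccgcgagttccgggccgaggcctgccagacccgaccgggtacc
Mrpl36: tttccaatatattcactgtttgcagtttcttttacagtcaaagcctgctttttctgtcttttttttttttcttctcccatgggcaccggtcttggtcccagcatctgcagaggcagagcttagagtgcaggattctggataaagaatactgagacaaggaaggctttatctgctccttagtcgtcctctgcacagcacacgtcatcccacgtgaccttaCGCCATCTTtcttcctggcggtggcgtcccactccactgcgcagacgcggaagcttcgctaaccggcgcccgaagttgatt

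The 4 motifs searched were the 10-base NRF1 motif, that of ETS factors (CCGGAAG), that of YY1 (AAGATGGCG) and the TATA box (TATAAA), on both strands. Of the 77 genes, 68 had a promoter in the reference table. The ETS letters were present in 24 of the 68 promoters (35.3%), against 9.12% of all 27025 promoters of the table and 19.8% of the 8027 promoters of genes that could be tested between platforms. The YY1 letters were present in 8 (11.8%), against 1.49% and 3.77%, the NRF1 letters in 3 (4.41%), against 0.977% and 2.34%, and the TATA letters in 4 (5.88%), against 14.2% and 6.60%. No matches of different motifs overlapped in these promoters. Of the 28 ETS matches, 19 lay in the last 100 bases of the window, as did 7 of the 8 YY1 matches. In the sequences above, Mrps18b holds an ETS match close to the end of the window, Mrps24 a YY1 match close to the end and a TATA match far before the start site, and Mrpl36 a YY1 match, whereas no match was found in the windows of Mrpl45 and Mrpl40. A match is a description of the letters and not a binding site.

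The question of the first comparison was how these genes differed between the states. In sum they took a smaller share of the reads at Day4 on both platforms. In Direct RNA the 77 genes summed to 11956 CPM (95% Wilson interval 11600 to 12322) and 11929 CPM in the Undiff replicates and to 6636 CPM (6344 to 6941) and 9453 CPM in the Day4 replicates. In cDNA the sums were 21793 and 20536 CPM in Undiff and 18457 and 14583 CPM in Day4. The 2 Undiff libraries thus lay above both Day4 libraries on each platform. Per 1e6 aligned reads, reads given to no gene included, they did so too. With the unaligned reads that the tables list added, cDNA Undiff replicate 2 was at 7861 per 1e6 reads, below the cDNA Day4 libraries at 10067 and 8668, but 2 of the 4 cDNA tables list 0 unaligned reads, so that denominator is not comparable between them. As group means, the sums were 11942 ± 19.1 CPM (SD, n = 2) and 8044 ± 1992 CPM in Direct RNA, and 21165 ± 889 CPM and 16520 ± 2740 CPM in cDNA. The Day4 replicates differed by more than their counting intervals on both platforms, with replicate 1 the lower in Direct RNA and replicate 2 the lower in cDNA. In these bulk samples, fewer cells of a type and less RNA per cell cannot be told apart.

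Both subunits showed the lower share. Genes named for the large subunit summed to 8219 and 8257 CPM in Direct RNA Undiff and to 4569 and 6566 CPM in Direct RNA Day4. Those of the small subunit summed to 3736 and 3672 CPM in Undiff and to 2067 and 2887 CPM in Day4. In cDNA the large subunit went from 15030 and 14395 CPM to 12614 and 9811 CPM, and the small subunit from 6763 and 6141 CPM to 5844 and 4772 CPM. In every group and subunit the Undiff and Day4 libraries did not overlap.

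**Figure D1:**
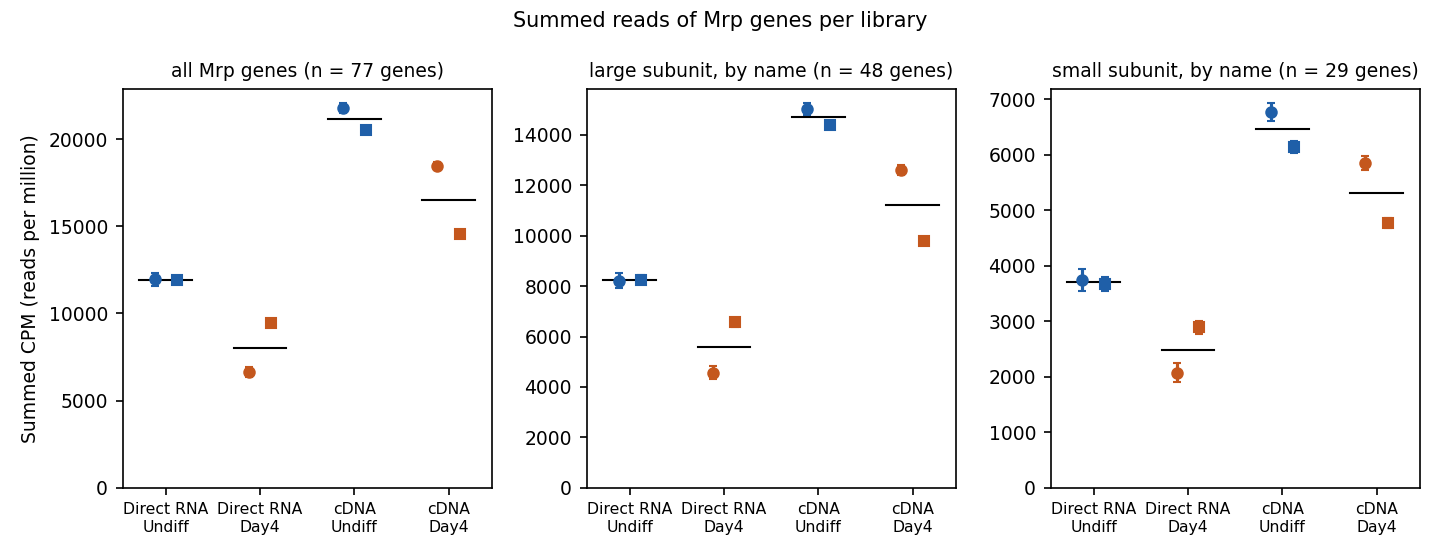
Summed CPM of the 77 Mrp genes (left), the 48 named for the large subunit (middle) and the 29 named for the small subunit (right) in each library. Circles are replicate 1 and squares replicate 2, blue is Undiff and orange Day4, error bars are 95% Wilson intervals of the count and lines are group means. The Undiff points lie above the Day4 points on each platform, and all cDNA points lie above all Direct RNA points.

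Single genes were tested with DESeq2 on each platform, and calls required an adjusted p (Benjamini-Hochberg, over all genes fitted) no greater than 0.05, a change of 1 or more on the log2 scale in either direction and a mean normalised count of 5 or more. All 77 genes reached that mean, and genes that reached it are the genes tested in what follows. In Direct RNA, 8 of the 77 fell and 0 rose, against 17.2% of the 9646 genes tested that were called in either direction and 7.67% that fell. In cDNA, 9 fell and 0 rose, against 17.9% called and 9.24% that fell among 10271 genes. The shares of the Mrp genes that fell, 10.4% and 11.7%, were thus close to the background. No call was made in the other direction, in which 9.54% and 8.69% of all genes were called. Direct RNA gave a median log2 fold change of -0.57, against 0.03 over all genes tested, and cDNA one of -0.59, against 0.00 (-0.36 without Day4 replicate 1 in Direct RNA, -0.36 without Day4 replicate 2 in cDNA, and -0.28 in cDNA with total reads as size factors, against 0.33), and 67 and 63 of the 77 estimates were negative. Leaving out 1 library leaves a group with a single sample, which is assumed to vary like the 2 libraries of the other group, so these fits say little of how firm a single call is. They lowered these counts, to 2 without Undiff replicate 1, 1 without Undiff replicate 2, 2 without Day4 replicate 1 and 4 without Day4 replicate 2 in Direct RNA, against 2.45%, 1.42%, 4.02% and 3.14% of all genes. In cDNA the counts in the same order were 2, 4, 3 and 1, against 4.22%, 4.38%, 4.08% and 3.93%, so the share of all genes that fell was lower in these fits as well. With total reads as size factors, 5 fell on each platform, against 6.60% and 6.34% of all genes. With edgeR's quasi-likelihood test, 13 and 14 fell and 0 rose, against 15.1% and 15.5% of all genes that fell.

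The genes that fell on both platforms were 5, namely Mrps18b, Mrpl15, Mrpl45, Mrps24 and Mrpl40, and 12 fell on at least 1 platform. Of the 8720 genes tested on both platforms, 5.18% fell on both and 11.9% on at least 1. With a replicate block the Direct RNA calls of Mrps24 and Mrpl40 were lost, the latter also with total reads as size factors, and 3 genes were then called on both. Mrps18b (chr17:35910379-35916389 on GRCm38, minus strand) encodes a small-subunit protein and is one of 3 genes related to that of bacterial ribosomal protein S18. It was at 218 and 277 CPM in the Direct RNA Undiff libraries and at 38.8 and 66.4 CPM in Day4, and at 326 and 422 CPM in cDNA Undiff and 102 and 104 CPM in cDNA Day4. The states did not overlap on either platform. Its log2 fold change was -2.23 ± 0.45 (SE; adjusted p = 3.09e-05, DESeq2) in Direct RNA and -2.15 ± 0.39 (adjusted p = 1.92e-06) in cDNA, the largest decrease of the 77 genes on both. An antisense gene of the annotation that the count tables do not list under that symbol, Gm16279, covers 59.1% of its longest protein-coding transcript.

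The other genes related to bacterial S18 were not called. Mrps18a, whose product is in the large subunit, was at 115 and 97.0 CPM in Direct RNA Undiff and at 127 and 117 CPM in Day4, and its estimates were 0.10 ± 0.45 and 0.06 ± 0.42 (SE) in Direct RNA and cDNA. Mrps18c, the closest counterpart of the bacterial protein, was at 106 and 151 CPM in Direct RNA Undiff and at 88.2 and 127 CPM in Day4, with estimates of -0.35 ± 0.47 and -0.56 ± 0.45. The difference between the 3 genes was not tested.

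Mrpl15 (chr1:4773206-4785739, minus strand), a bacterial-type protein bound to the large ribosomal RNA in bacteria, went from 643 and 608 CPM to 148 and 207 CPM in Direct RNA and from 1138 and 1182 CPM to 493 and 424 CPM in cDNA. The log2 fold changes were -1.87 ± 0.33 (SE; adjusted p = 5.96e-07, DESeq2) and -1.63 ± 0.37 (adjusted p = 0.000301). It was called in 4 of 4 fits that left out 1 library in Direct RNA and in 3 of 4 in cDNA, where it was lost with an adjusted p of 0.0868. For Mrps18b these counts were 3 of 4 and 4 of 4.

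Mrpl45 (chr11:97315716-97329920, plus strand) encodes a protein without a bacterial homologue that lines the exit of the peptide tunnel and anchors the mitoribosome at the inner membrane. It was at 327 and 278 CPM in Direct RNA Undiff and 88.2 and 136 CPM in Day4, and at 845 and 785 CPM in cDNA Undiff and 354 and 379 CPM in Day4. The log2 fold changes were -1.47 ± 0.39 (SE; adjusted p = 0.00296, DESeq2) and -1.46 ± 0.37 (adjusted p = 0.00135), so its estimates on the 2 platforms were almost equal. Mrps24 (chr11:5703983-5715680, minus strand), a small-subunit protein related to bacterial S3, was at 304 and 277 CPM in Direct RNA Undiff and 98.8 and 150.5 CPM in Day4. In cDNA its Undiff replicates were apart, at 430.1 and 229 CPM, yet both were above the Day4 values of 108 and 103 CPM. It fell by 1.26 and 1.94 on the log2 scale (adjusted p = 0.0135 and 0.00043, DESeq2), and its exons overlap those of Urgcp on the same strand. Mrpl40 (chr16:18872018-18876862, minus strand), a large-subunit protein without a bacterial homologue, went from 201 and 234 CPM to 91.7 and 108 CPM in Direct RNA and from 608 and 643 CPM to 311 and 290.3 CPM in cDNA. It fell by 1.19 and 1.35 (adjusted p = 0.0359 and 0.00437). Without 1 library, Mrpl45 was called in 1 of 4 fits on each platform, Mrps24 in 0 and 2 of 4, and Mrpl40 in 0 of 4 on both.

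**Figure D2:**
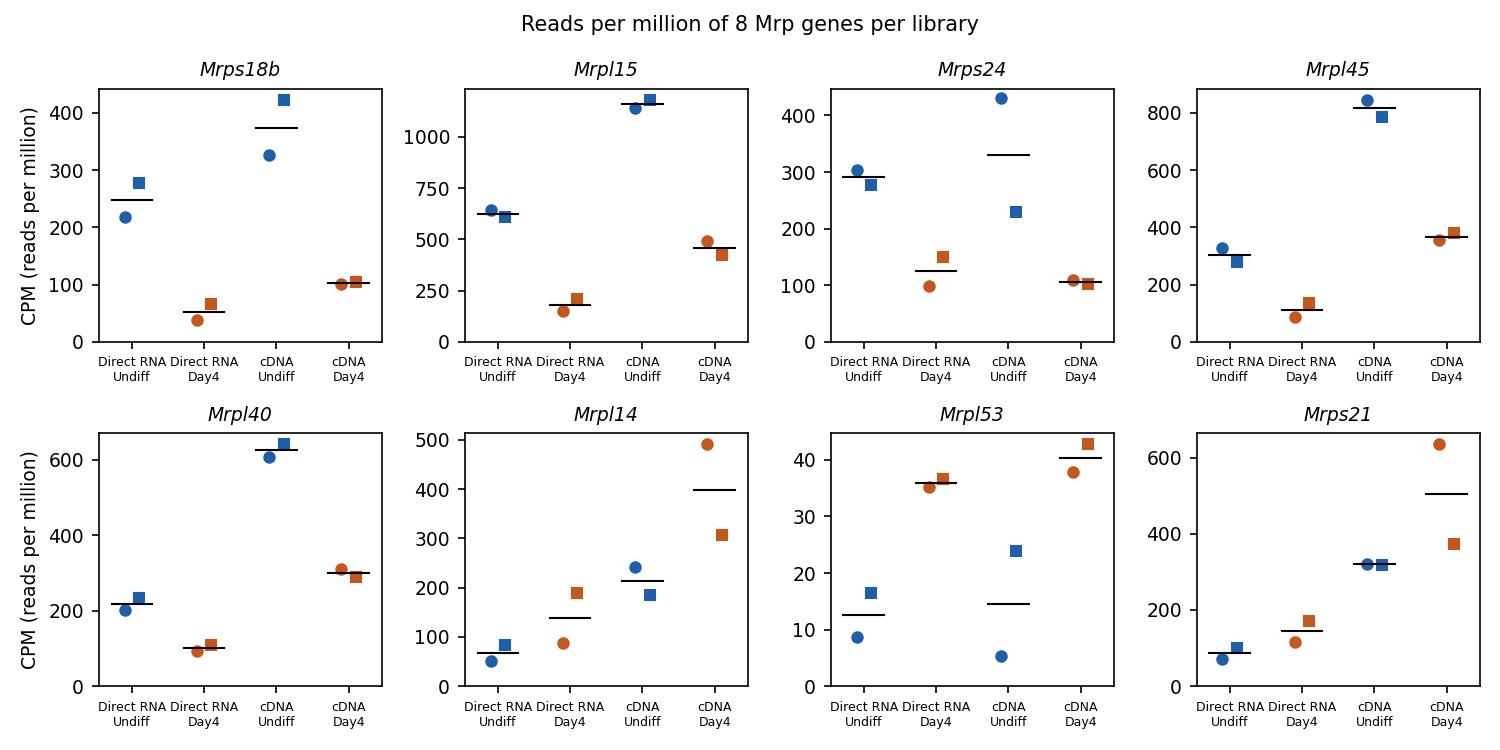
CPM per library of the 5 genes that fell on both platforms (Mrps18b, Mrpl15, Mrps24, Mrpl45 and Mrpl40) and of 3 genes with positive estimates that were not called (Mrpl14, Mrpl53 and Mrps21). Circles are replicate 1 and squares replicate 2, blue is Undiff and orange Day4, and lines are group means. For the first 5 genes the Day4 points lie below the Undiff points on each platform, and for the last 3 they lie above.

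Another 3 genes were called by DESeq2 in Direct RNA and not in cDNA, each a large-subunit protein of bacterial type. Mrpl36, the counterpart of a small zinc-binding protein of bacteria, was at 175 and 213 CPM in Undiff and at 49.4 and 103 CPM in Day4, and fell by 1.36 on the log2 scale (adjusted p = 0.0349, DESeq2). Mrpl18, a protein bound to 5S RNA in bacterial ribosomes, was at 316 and 336 CPM in Undiff and at 138 and 161 CPM in Day4, and fell by 1.20 (adjusted p = 0.0109). Mrpl20 was at 278 and 270.0 CPM in Undiff and at 106 and 160.0 CPM in Day4, and fell by 1.10 (adjusted p = 0.0427). In cDNA their estimates were -1.09, -0.74 and -0.83 (adjusted p = 0.0541, 0.281 and 0.205), and the difference between platforms did not pass the test for any of them, as the test of that difference shows. In cDNA, Mrpl36 was called by edgeR (-1.08, adjusted p = 0.0312) and with the replicate block (-1.11, adjusted p = 0.0235). In Direct RNA the replicate block lost the calls of Mrpl36, Mrpl18 and Mrpl20. Total reads as size factors lost those of Mrpl36 and Mrpl20. The call of Mrpl20 was also lost with TMM library sizes and with at least 10 reads required of each library. All 3 Direct RNA calls were lost when any 1 of the 4 Direct RNA libraries was left out.

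A further 4 genes were called by DESeq2 in cDNA and not in Direct RNA. Mrpl22, a protein that lines the peptide tunnel, was at 445 and 317 CPM in Undiff and at 215 and 194 CPM in Day4, and fell by 1.20 on the log2 scale (adjusted p = 0.0331, DESeq2). Mrpl47, a protein of the tunnel exit related to bacterial L29, was at 204.5 and 175 CPM and at 97.9 and 99.6 CPM, and fell by 1.25 (adjusted p = 0.0275). Mrpl42, without a bacterial homologue, was at 1232 and 1009 CPM and at 661 and 546 CPM, and fell by 1.19 (adjusted p = 0.0222). Mrps12, the counterpart of the protein of the bacterial decoding centre where streptomycin resistance arises, was at 382 and 408 CPM and at 228 and 214 CPM, and fell by 1.14 (adjusted p = 0.0284). The Direct RNA estimates of these genes were -0.43, -1.03, -0.61 and -1.16 (adjusted p = 0.813, 0.17, 0.384 and 0.0975). In Direct RNA, edgeR called Mrpl47 (-1.03, adjusted p = 0.0251) and Mrps12 (-1.15, adjusted p = 0.00578), and the interaction test called none of the 4. With total reads as size factors all 4 cDNA calls were lost, and with at least 10 reads required of each library those of Mrpl22, Mrpl42 and Mrps12. None of them remained when any 1 of the 4 cDNA libraries was left out.

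Mrpl12, the stalk protein that also binds the mitochondrial RNA polymerase, was at 339 and 346 CPM in Direct RNA Undiff and 162 and 222 CPM in Day4, and its estimates of -0.90 and -1.07 (adjusted p = 0.0786 and 0.0579, DESeq2) were not called, although Mrpl12 was called in cDNA by edgeR (adjusted p = 0.0335) and with the replicate block (adjusted p = 0.0136). Mrps28 with -1.33 (adjusted p = 0.0615) was the lowest estimate in Direct RNA that DESeq2 did not call. By edgeR, Mrps28 was called in both Direct RNA (adjusted p = 0.00284) and cDNA (adjusted p = 0.0423). Mrpl23, a protein of the tunnel exit, had few reads, at 11.5 and 17.6 CPM in Direct RNA Undiff and 7.06 and 14.9 CPM in Day4. Its estimates of -0.41 ± 1.04 and -0.13 ± 0.67 (SE) had wide errors, and the cDNA one turned positive, to 0.15, with total reads as size factors.

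No gene rose. The highest estimates were those of Mrpl53, at 8.61 and 16.5 CPM in Direct RNA Undiff and 35.3 and 36.6 CPM in Day4, and at 5.27 and 23.9 CPM in cDNA Undiff and 37.9 and 42.8 CPM in Day4. The states did not overlap on either platform, but the estimates of 1.22 ± 0.85 and 1.06 ± 0.68 (SE; adjusted p = 0.486 and 0.417, DESeq2) did not pass the test, with as few as 3 reads in a library. Mrpl14, counterpart of a conserved protein at the subunit interface, was at 51.7 and 82.6 CPM in Direct RNA Undiff and 88.2 and 189.8 CPM in Day4, and at 242 and 186 CPM in cDNA Undiff and 492 and 307 CPM in Day4. Its estimates were 0.91 and 0.58 (adjusted p = 0.343 and 0.541). Next in Direct RNA were Mrpl41 with 0.84, Mrps36 with 0.80 and Mrps21 with 0.60, and next in cDNA were Mrpl9 with 0.57, Mrps9 with 0.43 and Mrpl41 with 0.42. None of them was called, and the 95% interval of Mrpl41 in Direct RNA ran from -0.40 to 2.07.

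Across the 77 genes, both Day4 CPM values lay below both Undiff values for 48 genes in Direct RNA, against 30.3% of all genes tested, and above them for 6, against 37.3%. In cDNA the counts were 34, against 23.2%, and 11, against 43.1%. The estimates had the same sign on both platforms for 69 of the 77 genes, 61 of them negative. Spearman's coefficient between the platforms was 0.76 over the 77 genes and 0.86 over 8720 genes, as a description across genes that share libraries. By subunit, 6 of 48 large-subunit genes fell on each platform, with medians of -0.59 and -0.61, and 2 and 3 of 29 small-subunit genes, with medians of -0.55 and -0.52. By origin, 6 of the 48 genes with a bacterial homologue fell on each platform, with medians of -0.61 and -0.62, and 2 and 3 of the 29 without one, with medians of -0.50 and -0.52. These shares, from 6.90% to 12.5%, were close to the 7.67% and 9.24% of all genes that fell. No difference by subunit or origin is read from them.

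**Figure D3:**
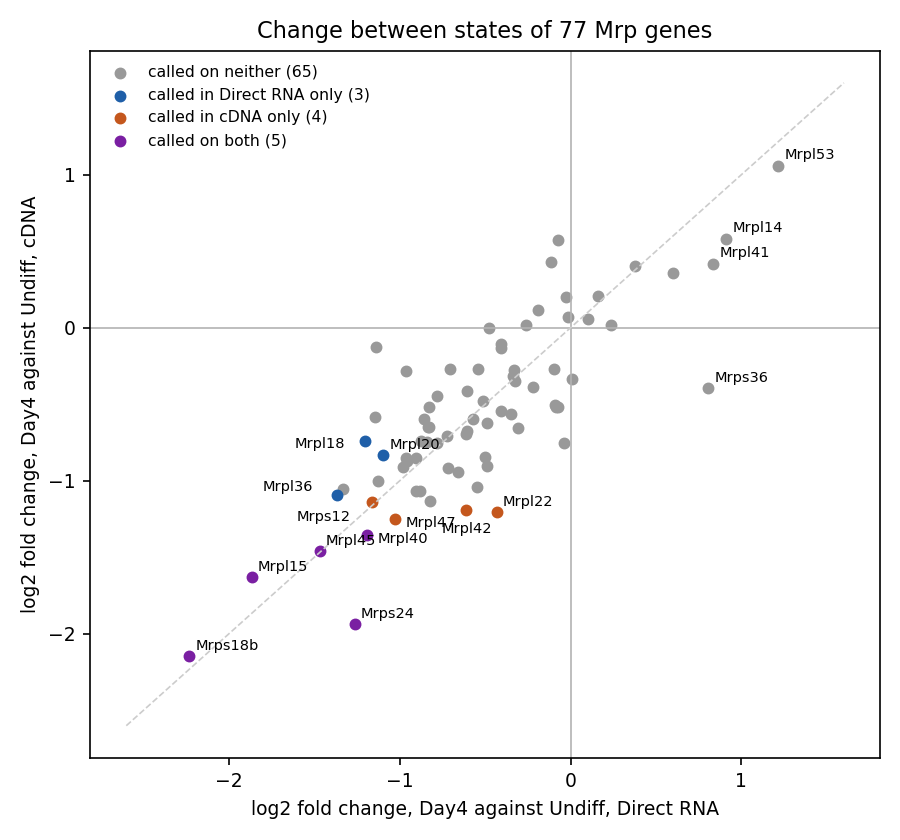
Log2 fold change between Day4 and Undiff of each of the 77 Mrp genes in Direct RNA (horizontal axis) and in cDNA (vertical axis), from the DESeq2 fit of each platform. Colours give the platforms on which a gene was called and the dashed line is equality. Most points lie at the lower left, with Mrps18b at -2.23 and -2.15, and no gene with a positive estimate was called.

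Other genes of mitochondrial gene expression had negative medians, with few calls in lists too short to set these against the 7.67% and 9.24% of all genes that fell. Of 6 mitoribosomal proteins with other names, Ptcd3 fell in Direct RNA (-1.38, adjusted p = 0.0191, DESeq2) and none was called in cDNA, with medians of -0.77 and -0.46. None of 12 mitochondrial translation factors, 11 of them testable in cDNA, and none of 18 factors of mitoribosome assembly was called on either platform, with medians of -0.43 and -0.54 and of -0.53 and -0.33. Of 16 mitochondrial aminoacyl-tRNA synthetases, Lars2 fell in Direct RNA (-2.66, adjusted p = 3.32e-10) and none was called in cDNA, with medians of -0.51 and -0.46. Of the genes for expression of mitochondrial DNA, 9 testable in Direct RNA and 10 in cDNA, none was called, and every estimate was negative, with medians of -0.72 and -0.70. Among the cytosolic ribosomal proteins, 1 of 72 rose (Rps24, 1.10) and 1 fell (Rpl27, -1.84) in Direct RNA, with a median of -0.32, and 32 of 75 fell in cDNA, with a median of -0.99.

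The second comparison asked how the genes differed between the platforms at equal state. Most Mrp genes had more normalised reads in cDNA. In the DESeq2 fit of all 8 libraries, which had a term for state, the calls were 61 of the 77 genes, 57 higher and 4 lower in cDNA, against 51.3% of the 10426 genes tested, 24.7% higher and 26.6% lower. The median log2 fold change was 1.52, against -0.02 over all genes. The edgeR test called 63, 59 higher and 4 lower, against 56.1% of all genes. All 4 cDNA libraries lay above all 4 Direct RNA libraries in CPM for 34 of the 77 genes, against 9.75% of all genes, and below for 6, against 30.1%. With total reads as size factors the median of all genes moved to -0.77, and 39 Mrp genes were called, 33 higher and 6 lower, against 10.7% higher and 41.5% lower among all genes, with a median of 0.78. In summed CPM the 77 genes were at 9993 ± 2527 in Direct RNA and 18842 ± 3155 in cDNA (SD, n = 4 libraries of both states).

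By subunit, the difference between platforms was called for 38 of 48 large-subunit genes and 19 of 29 small-subunit genes as higher, against 24.7% of all genes, with medians of 1.49 and 1.66. Of the cytosolic ribosomal proteins, 47 of 75 were higher and 3 lower, with a median of 1.32. Most of the other mitochondrial lists had calls in both directions, and their medians were closer to 0. Of 6 mitoribosomal proteins with other names 2 were higher and 0 lower (median 0.21), of 12 translation factors 2 and 2 (0.29), of 19 assembly factors 4 and 4 (0.19), of 17 aminoacyl-tRNA synthetases 2 and 6 (-0.20), and of 11 genes for the expression of mitochondrial DNA 3 and 4 (0.07).

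The 6 highest estimates were as follows. Mrpl50, without a bacterial homologue, was at 68.9, 88.2, 81.1 and 80.0 CPM in Direct RNA (Undiff replicates 1 and 2, then Day4 replicates 1 and 2) and at 344, 339, 269 and 328 CPM in cDNA, with an estimate of 2.72 ± 0.22 (SE; DESeq2 adjusted p = 5.07e-34). Mrps5, a bacterial-type protein at the mRNA entry, was at 109, 115, 74.1 and 70.5 CPM in Direct RNA and at 373, 433, 285 and 329 CPM in cDNA, with 2.69 ± 0.18. Mrps33 with 2.72, Mrpl22 with 2.69, Mrps36 with 2.66 and Mrps14 with 2.63 were the others. The platforms did not overlap for any of these 6. Mrps36 had few reads in Direct RNA, at 8.61, 11.0, 14.1 and 25.8 CPM against 78.0, 46.9, 63.7 and 53.9 CPM in cDNA, and Mrps33 ranged from 10.6 to 16.3 CPM in Direct RNA and from 39.0 to 67.9 CPM in cDNA.

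The 4 called genes of the other direction were lower in cDNA. Mrpl24 (chr3:87919506-87923672, plus strand), a tunnel-exit protein of bacterial type, had 94, 227, 32 and 133 reads in the Direct RNA libraries, in the same order, and 2, 17, 2 and 8 reads in the deeper cDNA libraries. In CPM this was 269.8, 250.1, 113 and 180.3 against 2.11, 8.14, 1.52 and 3.85, with an estimate of -4.72 ± 0.39 (SE; DESeq2 adjusted p = 2.74e-31). Mrps30 (chr13:118378381-118387252, minus strand), a large-subunit protein without a bacterial homologue despite its name, was at 164, 134, 84.7 and 96.3 CPM in Direct RNA and at 10.5, 6.70, 5.31 and 6.74 CPM in cDNA, with -3.25 ± 0.33 (adjusted p = 5.25e-21). Every Direct RNA library was well above every cDNA library for both genes.

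Mrps26 (chr2:130563742-130568695, plus strand) was at 97.6, 88.2, 84.7 and 59.7 CPM in Direct RNA and at 7.38, 19.2, 16.7 and 16.8 CPM in cDNA, with -1.63 ± 0.32 (SE; adjusted p = 2.54e-06, DESeq2). Mrps27 (chr13:99344786-99415562, plus strand), an RNA-binding protein without a bacterial homologue, was at 74.6, 114, 70.6 and 74.6 CPM in Direct RNA and at 11.6, 35.0, 15.2 and 14.9 CPM in cDNA, with -1.36 ± 0.36 (adjusted p = 0.000588). These also did not overlap between platforms. Fitted on the Day4 libraries alone, neither Mrps26 nor Mrps27 was called, and Mrps27 was not called in the Undiff libraries alone either. Next in order were Mrpl38 with -0.43 and Mrps2 with -0.37, neither of them called, and the estimate of Mrps2 was 0.10 in the Day4 libraries alone.

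All 4 genes that were lower in cDNA have exonic bases that an antisense gene of GENCODE vM21 also covers, as do 27 of the 77 Mrp genes (35.1%) and 24.2% of all matched genes. For 20 of the 77 (26.0%), against 14.8% of genes, that antisense gene is itself listed in the count tables under the same symbol. Antisense genes listed under another symbol were not searched for, so these shares are lower bounds. Direct RNA reads had been counted by strand, while for cDNA the counting is not stated to use the strand, and a read that falls on 2 genes is then counted for neither. Ambiguous reads, as a share of those on genes, on no feature or ambiguous, made up 1.84% to 1.99% in Direct RNA and 6.08% to 6.70% in cDNA. Mrpl24 shares 594 exonic bases with Rrnad1, 26.3% of its exonic bases. Rrnad1 was 2.04 higher in cDNA on the log2 scale and had 19, 21, 30 and 90 reads there. For Mrps27 506 exonic bases were shared (24.2%) and for Mrps30 623 (9.35%), but for Mrps26 no more than 8. The antisense gene at Mrps30, B430218F22Rik, is not listed in the count tables under that symbol, and the one at Mrps27, 6430562O15Rik, was at 0 reads in every library. The 27 genes with such an overlap had a median of 1.22 between platforms and the 50 without it a median of 1.81, with 41 of the 50 higher and 0 lower, against 1881 of 7119 genes without it that were higher. Over all genes the medians were -0.38 with an overlap and 0.11 without. The share of the overlap in these differences was not tested, and 16 of the 27 genes with an overlap were higher in cDNA, against 674 of 3274.

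**Figure D4:**
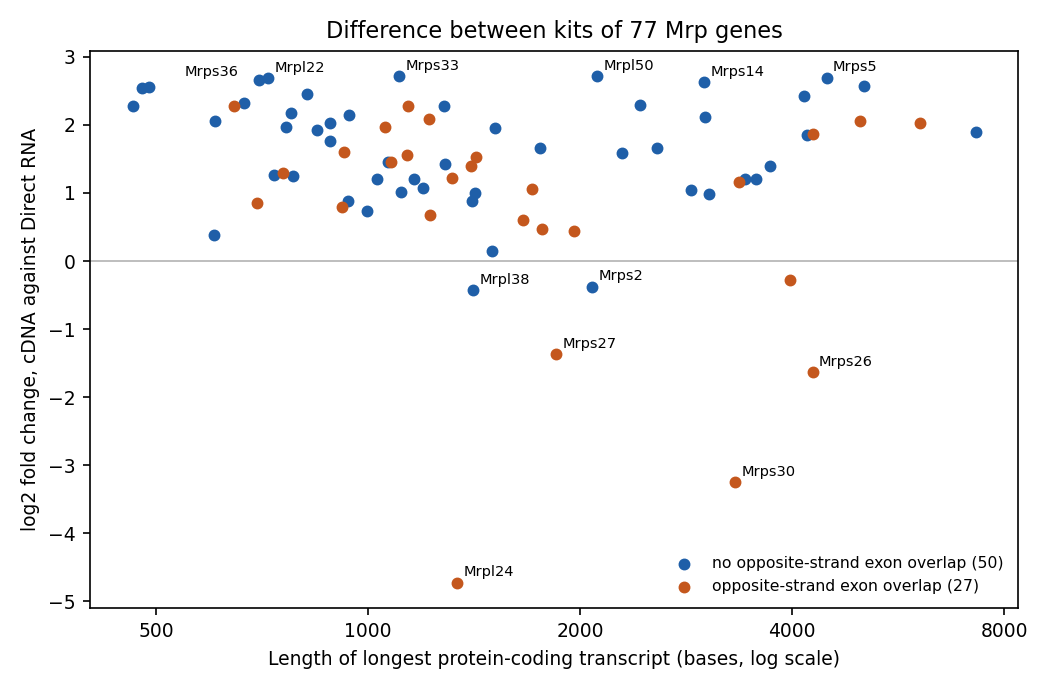
Log2 fold change between cDNA and Direct RNA of each of the 77 Mrp genes (vertical axis) against the length of its longest protein-coding transcript (horizontal axis, log scale), from the DESeq2 fit over all 8 libraries. Orange marks the 27 genes with an exon that overlaps an exon on the opposite strand and blue the 50 without. The 4 genes that were lower in cDNA, Mrpl24, Mrps30, Mrps26 and Mrps27, are orange, and the other points show no clear slope with length.

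Transcripts of the Mrp genes are short. The longest protein-coding transcript had a median of 1316 bases over the 77 genes, from 463 to 7300, against 3059 bases over the genes tested. Across all 10196 genes with such a length, the difference between platforms fell with length (Spearman's coefficient -0.33), while over the 77 genes the coefficient was -0.18, as descriptions across genes. Genes at or under the median length had a median difference of 0.52 over all genes and of 1.49 over the 62 Mrp genes among them. Over the median length these values were -0.63 and, for 15 Mrp genes, 1.85, and 12 of the 15 were higher in cDNA, against 758 of 5097 genes over that length. The part of length in the difference was not tested.

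The difference between platforms was also fitted in each state. Fitted on the Undiff libraries alone, 55 Mrp genes were called, 52 higher and 3 lower, against 29.5% of the genes tested, and on the Day4 libraries alone 53 were called, 51 higher and 2 lower, against 32.0%. The estimates had the same sign in both states for 75 of the 77 genes. Spearman's coefficient between the states was 0.92 over the 77 genes.

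**Figure D5:**
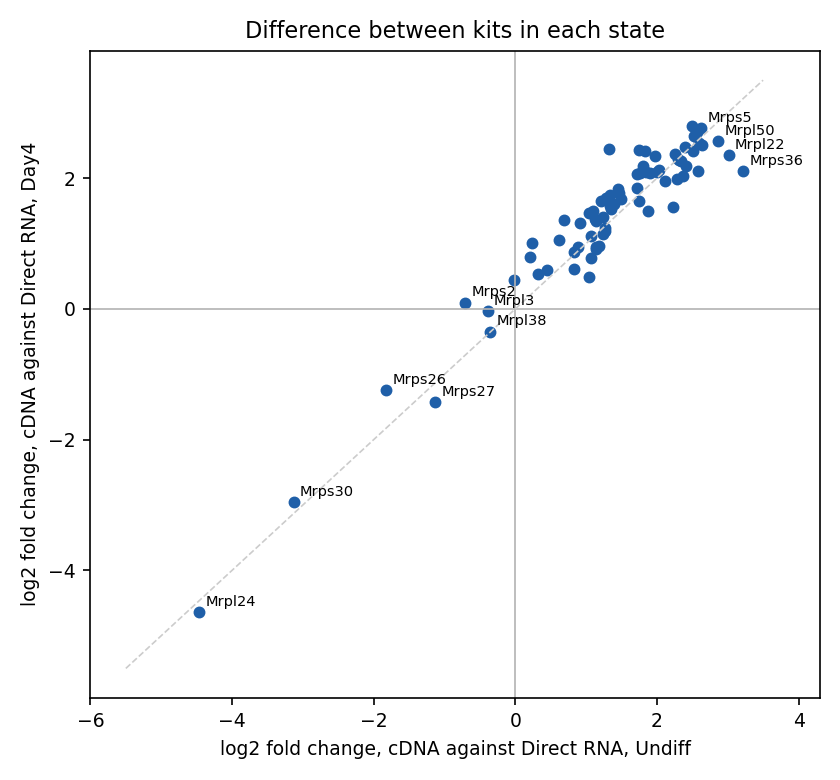
Log2 fold change between cDNA and Direct RNA of each of the 77 Mrp genes in the Undiff libraries (horizontal axis) and in the Day4 libraries (vertical axis), each from its own DESeq2 fit. The dashed line is equality. Mrpl24 and Mrps30 stand at the lower left and most other genes at the upper right, close to the line.

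The third comparison tested, gene by gene, the cDNA change between states against the Direct RNA change. By the DESeq2 interaction test, 0 of the 77 genes were called, against 0.0116% of 17267 genes (2 genes), and 0 had an unadjusted p of at most 0.05. The edgeR test called 0 of the 77, against 0.0811% of all genes, and also gave 0 at an unadjusted p of at most 0.05. Mrps36 had the smallest unadjusted p, and its change in cDNA minus that in Direct RNA was -1.39 on the log2 scale (95% interval -3.26 to 0.49, DESeq2 adjusted p = 1.00). Its level was 8.61 and 11.0 CPM in Direct RNA Undiff and 14.1 and 25.8 CPM in Day4, an estimate of 0.80, while the cDNA libraries overlapped and gave -0.40. Mrpl22 followed with -0.82 ± 0.60 (SE) and Mrpl48 with 1.08 (-0.72 to 2.88). The median standard error over the 77 genes was 0.61, and differences that are small against this error could not have been detected with 2 libraries a group.

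Levels between genes were compared as the mean CPM over the 8 libraries per kilobase of the longest transcript. A native strand or copy can be read whole, so reads need not grow with length, and the division then lowers long transcripts. In Direct RNA, Mrpl15 at 402 CPM ranked 27 per kilobase (4600 bases) and Mrpl34 at 241 CPM ranked 1 (607 bases). The order per kilobase is thus not an order of abundance. The highest values per kilobase were those of Mrpl34 with 689, Mrps21 with 541, Mrpl52 with 446, Mrpl20 with 411 and Mrpl18 with 335 CPM, and Mrpl34 and Mrps21 were among the 3 highest on each platform. The lowest were those of Mrpl23 with 4.46, Mrpl48 with 7.44, Mrps26 with 11.4, Mrps30 with 16.7 and Mrps10 with 19.5. These means hide differences between platforms. Mrpl23 with 3.44 and Mrpl48 with 4.70 were the lowest in Direct RNA, where Mrps30 was at 31.5 and ranked 61 of 77, whereas Mrps30 was the lowest in cDNA with 1.93. Mrps10 ranked 70 in Direct RNA and 69 in cDNA. The length chosen matters here. With the longest protein-coding transcript instead, an alternative added after the data were seen, the range ran from 7.44 (Mrpl48) to 855 (Mrpl42), Mrpl23 moved to 22.5 and Mrps10 to 71.6. Spearman's coefficient between mean CPM in Direct RNA and in cDNA was 0.64 over the 77 genes.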

How the data were processed

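The deposited files hold whole-number read counts, 1 value a gene symbol, that came from HTSeq run by the authors on minimap2 alignments to mm10 and were not normalized. Direct RNA was counted by strand, and for cDNA the use of strand is not given in the sources used here. The reads assigned to no gene (between 31.7% and 48.2% of the aligned reads) stayed out of library sizes and tests. Groups and replicate numbers came from the labels. Direct RNA used 500 ng and cDNA 50 ng of polyadenylated RNA. Short-read libraries were not analysed here.

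All genes with a read in the libraries compared were fitted with DESeq2 1.42.0 in R 4.3.3, following the study's settings (Wald test, shrunken log2 fold changes, Cook's cutoff and independent filtering off), per platform for the states and over all 8 libraries for platform and interaction, the last without shrinkage. Adjusted p-values come from these fits unless edgeR 4.0.16 (quasi-likelihood test, TMM factors) is named. Wilson intervals are at 95%, and they and the floors of 3 reads leave out the variation between replicates. In cDNA, PCR copies are not independent molecules, so the intervals there can be too narrow for counting error as well.

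Replicates differed by more than sampling noise in every group, with a chi-square per degree of freedom over the Mrp genes of 1.42 and 1.44 in Direct RNA Undiff and Day4 and 10.6 and 8.75 in cDNA. The RNA of the duplicate cultures went to both kits, but the sources used here do not say that a number marks the same culture on both.

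Gene positions, transcript lengths and shared exonic bases come from GENCODE vM21 (GRCm38, the same assembly as mm10), where all 77 symbols were found. The authors counted reads on genes with an mm10 annotation from iGenomes UCSC, whose exons can differ. Promoters are RefSeq entries of GRCm38.p6.

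The Mrp genes, the gene lists and the rule for named genes were chosen with earlier results of these data known. The rule named every gene called in a state test, the 5 highest and 5 lowest estimates of each state test, the 6 highest and 6 lowest between platforms, the 3 smallest p-values of the interaction, the 5 highest and 5 lowest levels per kilobase of longest transcript, and Mrps36, Mrps30, Mrps18a, Mrps18b, Mrps18c, Mrpl12 and Mrpl23 for their identity. Other genes are named where a list held few calls or an exon overlap was described. Alternatives were edgeR, TMM or total reads as size factors, at least 10 reads in every library, default filtering, no shrinkage, a replicate block, single states and leaving out each library.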

Additional observations from a re-analysis of the deposited data

How the results depend on the processing

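No called value of the 38 named genes changed direction under any alternative run. Of 841 single-gene values 738 kept their sign and their side of the thresholds, 80 lost a call and 13 gained one. The other 10, none of them called, changed sign. The median Mrp gene had between 24 and 122 reads in a Direct RNA library, and each group had 2 libraries. The causes of the following differences were not tested, except that leaving out a library leaves fewer samples.

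The count of Mrp genes that fell at Day4, 8 in Direct RNA and 9 in cDNA, was 13 and 14 with edgeR (15.1% and 15.5% of all genes fell), 5 and 5 with total reads as size factors (6.60% and 6.34%), and between 1 and 4 on each platform without 1 library. The median in cDNA, -0.59, was -0.28 with total reads, where all genes had 0.33, -0.40 with the filter of 10 reads in each library and between -0.73 and -0.36 without 1 library. In Direct RNA it ranged from -0.83 to -0.36 without 1 library. Between platforms, 61 genes became 39 with total reads (52.2% of all genes called, median 0.78, all genes -0.77) and 39 of the 67 left under that filter (46.9% of all genes left). Without 1 library, between 57 and 64 were called, against 45.5% to 48.4% of all genes.

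With a replicate block, 3 genes fell in Direct RNA (Mrps18b, Mrpl15 and Mrpl45) and 12 in cDNA, against 4.02% and 7.57% of all genes. Between platforms 60 were called, against 48.4% of all genes, and in the interaction 0, against 0.0116%. Within a state the 2 platforms drew on the same duplicate cultures, but whether their numbers match is not stated. Undiff and Day4 libraries are known to share only a number. Over 1395 genes the replicate differences of Undiff and Day4 correlated at 0.214 for Direct RNA and 0.499 for cDNA, and those of the 2 platforms at 0.126 for Undiff and -0.416 for Day4. With the Day4 numbers crossed between platforms, an alternative chosen after seeing the data, 61 genes were called, against 48.7% of all genes.

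With aligned reads given to no gene in the denominator, the summed CPM of the group means became 7581 and 5217 in Direct RNA Undiff and Day4 and 11194 and 9439 in cDNA. With the unaligned reads listed added, an alternative chosen after seeing the data, they were 6704, 4788, 9579.5 and 9368. Without the 32 genes that overlap another gene they became 7345, 4941, 14819 and 11340.

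Signs turned for Mrpl23 in cDNA (0.15 with total reads, 0.025 with at least 10 reads in every library) and for Mrps2 between platforms (0.10 in Day4 alone). Without 1 library, Mrpl23 in cDNA ranged from -0.51 to 0.33, Mrpl41 in Direct RNA from -0.071 to 1.34, Mrps18a from -0.013 to 0.15 in Direct RNA and, in cDNA, from -0.23 to 0.37, and Mrps36 in cDNA from -0.78 to 0.0037.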
